A study of Mus musculus with 12 samples.

Results

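The comparison of knockout (KO) with wild-type (WT) jejunum at day 6, the earliest time point of the series, covered 4 of its 12 arrays: replicates 1 and 2 of each genotype, 1 mouse per array. The members were chosen by sample title alone, and all 19938 genes with a probe set of a single symbol were tested; where a gene had several such probe sets, the one highest on average over the 12 arrays was taken. The KO mice carried an inducible ablation of Fgfr1op, whose current symbol is Cep43 and whose product is a centrosomal protein, and the labels place day 6 after tamoxifen, which was injected intraperitoneally at 75 mg/kg on 5 days in a row. WT mice of the same day were the controls, and the other arrays were from days 9 and 12, with 2 mice per genotype and day. The labels list tamoxifen at 75 mg/kg on 5 days for the WT arrays as for the KO arrays. They do not give the recombinase driver, the deleted part of the gene, strain, age or sex, or say whether WT mice were littermates. RNA came from whole intestinal tissue, so each value mixes epithelium, muscle coat, nerves, stroma and immune cells. In such bulk samples fewer cells of a type and less RNA per cell cannot be told apart.

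The jejunal epithelium renews itself continuously: stem cells at the crypt base divide, their daughters divide further along the crypt, and absorptive enterocytes leave the cycle as they move up the villus. Centrosomes organise the mitotic spindle and anchor cilia, and in many cell types the loss of a centrosome or a prolonged mitosis activates the transcription factor p53. Around this mucosa lie layers of smooth muscle with the enteric nerves and the interstitial cells of Cajal, which pace contraction.

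The values are the deposited log2 signals of an Affymetrix Mouse Gene 1.0 ST array, with array medians between 5.95 and 6.02. The 2 WT arrays of day 6 correlated at 0.9940 across genes and the 2 KO arrays at 0.9969. The 95th percentile of 1027 odorant receptor genes, which the gut is not known to use widely, was 5.33, and folds are left out for group means below it. Cep43 read 6.97 and 6.90 in WT and 6.69 and 6.56 in KO. Both KO arrays lay below all 6 WT arrays of the series, but the difference of -0.31 (SE 0.11, n = 2 per genotype) did not pass (limma adjusted p = 0.267), and whether the probe set lies in the deleted part is not known.

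WT replicate 2 of day 6 stood apart in sex-linked genes. Xist, the RNA that coats the inactive X chromosome, read 9.78 on that array, against 4.23 in WT replicate 1 and 4.37 and 4.03 in the KO arrays. The Y-linked Eif2s3y read 4.03 on it, against 8.09 in WT replicate 1 and 8.35 and 8.85 in KO, and Kdm5d and Uty were likewise low. All 4 arrays of day 9 resembled WT replicate 1 in these genes and all 4 of day 12 resembled WT replicate 2. Counts of called genes without that array are therefore given beside those of all arrays, for the gene lists together after the last list.

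At day 6, 205 genes passed at an adjusted p under 0.05 (limma, Benjamini-Hochberg over 19938 genes), 1.03% of those tested, of which 119 were higher in KO (0.597%) and 86 lower (0.431%). The KO and WT arrays of that day did not overlap for any of the 205, against 44.6% of all genes without overlap in either direction. A change of at least 2-fold was seen for 18 of the higher and 32 of the lower genes, and the median size of a called difference was 0.73. Without WT replicate 2 there were 136 calls, 68 in each direction, and 92 of these were among the 205. Without WT replicate 1 there were 40 calls, and without KO replicate 1 or 2 there were 29 or 21. The WT arrays of other days lent a wider comparison: for 197 of the 205 genes both KO arrays lay outside the range of all 6 WT arrays, against 20.8% of all genes. Selection on the day 6 arrays raises this share too. The split by direction depended on scaling, with 155 of 227 calls higher when arrays were centred on their medians, 90 of 174 with quantile normalisation, and 45 of 418 when arrays were centred on the mean of 26 shared epithelial genes, which moved the median difference of all genes from 0.00 to -0.17.

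Apart from the immunoglobulin segment Igkv4-91 (4.15), described at the end, the largest rises were those of Mboat1, Ankrd22, Dusp8 and Nox1. Immunoglobulin segments and odorant receptor genes were skipped in ranking the rises and falls. Mboat1, a lysophospholipid acyltransferase, read 7.07 and 7.19 in WT and 9.71 and 9.36 in KO, a 5.30-fold rise (log2 difference 2.40, SE 0.14, adjusted p = 5.56e-05). Nox1, the superoxide-producing NADPH oxidase of intestinal epithelium, read 6.76 and 6.86 in WT and 8.43 and 8.46 in KO (1.64, SE 0.13, adjusted p = 2.77e-04). Dusp8, a phosphatase that switches off MAP kinases, read 7.63 and 7.25 in WT and 9.32 and 9.14 in KO (1.79, SE 0.13, adjusted p = 1.38e-04). For each of these the KO arrays lay well above all 6 WT arrays, and each call held with any 1 of the 12 arrays left out. Only the 4 arrays of day 6 enter the day 6 difference, and leaving out any other array changes only the estimate of its spread. Ankrd22, an ankyrin repeat protein, read 5.82 and 6.04 in WT and 7.95 and 7.66 in KO (1.88, SE 0.13). Blnk, an adaptor known from B cell receptor signalling, read 7.32 and 7.80 in WT and 8.93 and 9.09 in KO (1.45, SE 0.15), while the B and plasma cell list described further on had no called member. Ckb, the brain-type creatine kinase, is abundant in both smooth muscle and epithelium and read 10.58 and 10.67 in WT and 11.96 and 11.91 in KO (1.31, SE 0.13). Calls for these 3 genes also held with any 1 array left out.

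Slc10a2, the sodium-dependent bile acid transporter that is normally strongest in the ileum, read 7.51 and 8.08 in WT and 9.29 and 9.10 in KO (1.40, SE 0.17, adjusted p = 0.00334). Its WT signal itself differed between days, from 6.82 and 6.62 at day 9 to 6.08 and 5.79 at day 12, so the KO arrays were above a WT pair that was the highest of the 3. Gml, a membrane-anchored protein of the Ly6 family, read 6.76 and 6.77 in WT and 8.06 and 8.39 in KO (1.46, SE 0.19). Fhdc1, a formin, rose by 1.55 (SE 0.24), Akr1b8, an aldo-keto reductase that clears reactive carbonyls, by 1.49 (SE 0.21), and Paqr8, a membrane progestin receptor, by 1.31 (SE 0.18). The calls of Gml, Fhdc1, Akr1b8 and Paqr8 ended without 1 or more of the 4 day 6 arrays, and that of Slc10a2 without KO replicate 1. Their direction did not change in any alternative, though leaving out an array could not change it, since their day 6 arrays did not overlap.

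**Figure D1:**
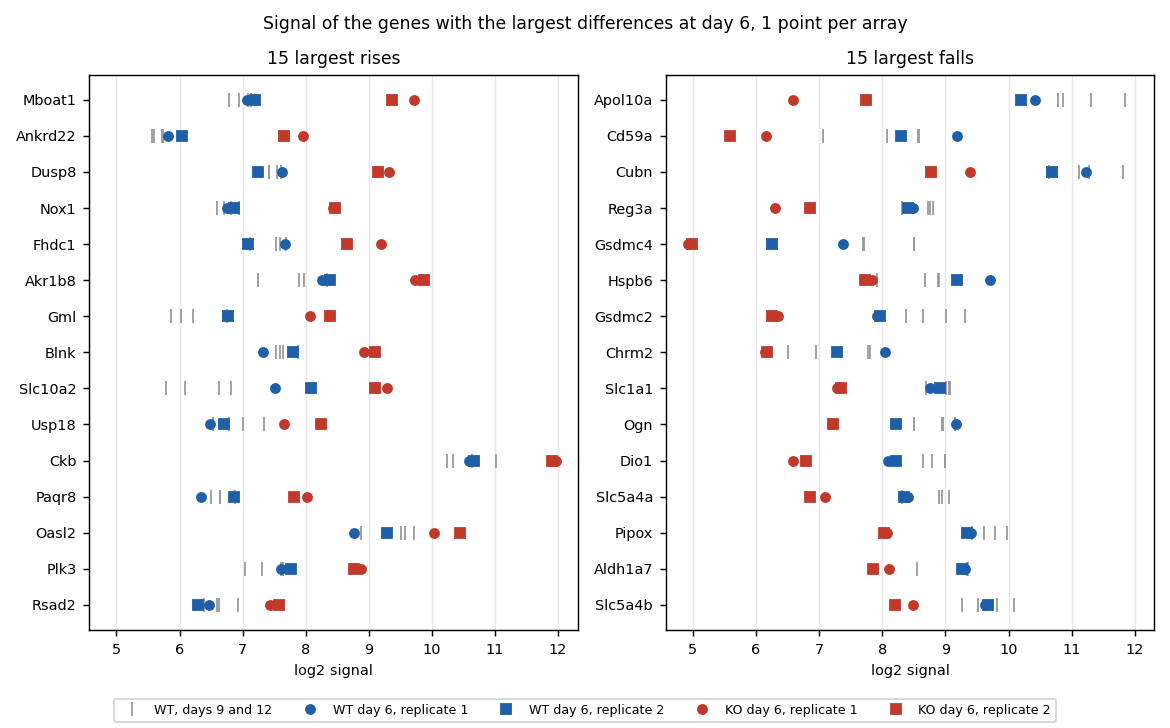
Log2 signal (horizontal axes) of the 15 genes with the largest rises (left) and the 15 with the largest falls (right) in KO at day 6, 1 symbol per array: blue for WT of day 6, red for KO of day 6, grey bars for the 4 WT arrays of days 9 and 12. In all 30 genes both red symbols lie beyond both blue ones, and Apol10a shows the widest gap, at a log2 difference of -3.15. Skipped in the ranking were an immunoglobulin segment among the rises (4.15) and an odorant receptor gene among the falls (-1.81).

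The largest falls were those of Apol10a and Cd59a. Apol10a, of the apolipoprotein L family, read 10.42 and 10.20 in WT and 6.59 and 7.74 in KO, an 8.86-fold fall (-3.15, SE 0.28, adjusted p = 5.34e-04). Its 2 KO arrays differed by more than 1 log2 unit and yet both lay far below the lowest WT array of the series; of the 6 measured Apol genes it was the only one called, and the median of the 6 was -0.03. Reg3a, an antimicrobial lectin, read 8.48 and 8.41 in WT and 6.30 and 6.86 in KO (-1.87, SE 0.19, adjusted p = 0.00115). Dio1, a deiodinase that acts on thyroid hormone, read 8.09 and 8.21 in WT and 6.59 and 6.79 in KO (-1.46, SE 0.10, adjusted p = 8.39e-05). Slc1a1, a glutamate transporter of the epithelial surface, read 8.75 and 8.91 in WT and 7.29 and 7.35 in KO (-1.51, SE 0.13), and Pipox, a peroxisomal enzyme that degrades pipecolic acid and sarcosine, read 9.41 and 9.35 in WT and 8.08 and 8.03 in KO (-1.33, SE 0.15). These 5 calls held with any 1 array left out. Apol10a, Reg3a and the gasdermins and transporters below belong to families of similar genes, between which an array probe set can share signal.

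Among uptake and membrane proteins, Cubn, the receptor for vitamin B12 bound to intrinsic factor, read 11.23 and 10.69 in WT and 9.39 and 8.77 in KO (-1.88, SE 0.36, adjusted p = 0.0433), and its call ended without any 1 of the 4 day 6 arrays, as did those of Slc5a4b, Gsdmc2, Aldh1a7 and Hspb6. The sugar-transporter relatives Slc5a4a and Slc5a4b, a near-identical pair, differed by -1.41 (SE 0.17) and -1.31 (SE 0.26). Gsdmc2 and Gsdmc4, gasdermins of the villus epithelium whose family forms membrane pores, both fell: Gsdmc2 from 7.92 and 7.97 to 6.35 and 6.25 (-1.64, SE 0.26) and Gsdmc4 from 7.38 and 6.25 to 4.92 and 4.99 (-1.86, SE 0.26), the KO mean of Gsdmc4 lying in the range of the odorant receptor genes. Cd59a, an inhibitor of complement pores, read 9.19 and 8.30 in WT and 6.15 and 5.58 in KO (-2.88, SE 0.40, adjusted p = 0.00854). Its WT arrays of day 9 read 7.06 and 8.07, so its level varied widely in WT. Aldh1a7, an aldehyde dehydrogenase with a close relative in Aldh1a1, fell by 1.31 (SE 0.22). The other falls among the 15 largest, Hspb6, Chrm2 and Ogn, are described with smooth muscle.

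The gene lists describe the programmes of only a minority of these calls. Most genes called at day 6 belonged to none of the 41 lists. The mean signal of a list lay above all 6 WT arrays on both KO arrays for 9 of the 41 lists. It lay below them for 10, so such a position was common. Of 57 measured genes of mitosis, 2 rose, 0 fell and 55 did not pass, and 54 stood higher in KO, with a median of 0.26 against 0.00 over all genes. The members that rose were Prc1, which bundles microtubules of the spindle midzone (7.56 and 7.82 in WT, 8.24 and 8.45 in KO; 0.66, SE 0.13, adjusted p = 0.0456), and Anln, a scaffold of the cytokinetic ring (7.25 and 7.24 in WT, 7.73 and 7.74 in KO; 0.49, SE 0.09, adjusted p = 0.0317). The list mean of the WT arrays was 7.42 and 7.51, that of the KO arrays 7.69 and 7.79, and it lay between 7.42 and 7.56 over all 6 WT arrays, so both KO arrays lay above the WT range. Its median was 0.09 with the smooth muscle mean as a covariate and 0.08 when arrays were centred on the shared epithelial genes, and no member passed under either or without any 1 of the 4 day 6 arrays. Of 50 genes of DNA replication, 0 passed, 44 stood higher and the median was 0.19 (0.01 when arrays were centred on the shared epithelial genes). Of 44 centrosome genes, among which the targeted gene falls, 1 rose, the abscission protein Cep55 (7.14 and 7.43 in WT, 8.05 and 8.08 in KO; 0.78, SE 0.12), and the list median was 0.08.

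The promoter of Prc1 is shown because a CHR element, TTTGAA, is the site at which many genes of mitosis are repressed outside division. On either strand, these letters were present in the 300-base RefSeq window (GRCm38.p6, 250 bases before and 50 after the start site) of 35 of the 47 measured mitosis genes with a window, 74.5%, and of 20.2% of all 27025 genes. Both called members had a match; the 51 bases of Prc1 lie at chr7:80294401-80294451 on the + strand and end with the element, in capitals, which begins 5 bases before the start site.
Prc1: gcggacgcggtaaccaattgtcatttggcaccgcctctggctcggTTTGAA

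Targets of p53 included several rises: 6 of 35 measured members rose, 17.1%, and 0 fell, against 1.03% of all genes called. Ccng1, a cyclin induced by p53, read 10.27 and 10.09 in WT and 10.87 and 10.96 in KO (0.73, SE 0.10, adjusted p = 0.00833). Plk2 and Plk3, stress-induced polo-like kinases, rose by 0.95 (SE 0.15) and 1.13 (SE 0.17). Sesn2, a stress protein, rose by 0.70 and Gtse1, a mitotic regulator of p53 itself, by 0.76. Eda2r, a receptor of the TNF receptor family, was the other member called (0.60, SE 0.12), at signals of 4.20 to 4.84 that lie in the range of the odorant receptor genes. Only Ccng1 was still called with the smooth muscle covariate (0.89, adjusted p = 0.0431). The other 29 members did not pass and the list median was 0.08, turning to -0.09 when arrays were centred on the shared epithelial genes. Without WT replicate 2, 4 members rose, without WT replicate 1, 2, and without KO replicate 1 or 2, 0; with a covariate of 9 contractile genes 0 rose as well. The list means of 7.57 and 7.56 in KO lay above all 6 WT arrays, which ran from 7.36 to 7.43, as in 9 of the 41 lists.

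Of 44 measured interferon-stimulated genes 5 rose, 11.4% against 0.597% of all genes, 0 fell and 39 did not pass. The list median was 0.24, and 0.06 when arrays were centred on the shared epithelial genes. Rsad2, the antiviral protein viperin, read 6.47 and 6.29 in WT and 7.44 and 7.57 in KO (1.12, SE 0.15, adjusted p = 0.00687). Usp18, which removes the ISG15 tag, read 6.48 and 6.70 in WT and 7.66 and 8.24 in KO (1.36, SE 0.26, adjusted p = 0.0424), and Oas3, of the family that makes 2-5A in response to double-stranded RNA, read 6.54 and 6.93 in WT and 7.65 and 8.01 in KO (1.10, SE 0.20). Oasl2 rose by 1.21 (SE 0.25) and Oasl1 by 0.55 (SE 0.11); the family members resemble each other in sequence. Both KO arrays of these genes lay above all 6 WT arrays. The list mean did not: at day 6 WT read 7.46 and 7.56 and KO 7.74 and 7.95, while WT of day 9 read 8.01 and 7.88. The calls of Usp18 and Oasl2 ended without any 1 day 6 array, and 2 members rose without WT replicate 2 of day 6, 1 without WT replicate 1 and 0 without KO replicate 1 or 2. With the replicate number as a block 1 member rose, and with the smooth muscle or the contractile covariate 0.

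The promoters of Rsad2 and Oas3 are shown because each holds an interferon-stimulated response element, here GAAANNGAAA on either strand. A match was present in 14 of the 31 measured interferon genes with a window, 45.2%, and in 3.99% of all genes. It was present in 2 of the 4 called members with a window. Both stretches are 100 bases from the - strand, at chr12:26456518-26456617 for Rsad2 and chr5:120777680-120777779 for Oas3, with the element in capitals; in Rsad2 it reads on the opposite strand. The match begins 120 bases before the start site in Rsad2 and 75 before it in Oas3.
Rsad2: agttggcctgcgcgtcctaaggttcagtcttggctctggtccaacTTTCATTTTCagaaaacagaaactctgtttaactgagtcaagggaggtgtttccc
Oas3: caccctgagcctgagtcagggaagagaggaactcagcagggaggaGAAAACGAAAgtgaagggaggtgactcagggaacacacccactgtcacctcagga

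Oxidase and oxidative stress genes, MAP kinase feedback and the non-muscle actomyosin genes each held several rises (10%, 8.33% and 10.5%), against 0.597% of all genes. None held a fall, which is near the 0.431% of all genes that fell. Of 40 measured oxidase and NRF2 list genes 4 rose: Nox1, Akr1b8, Ugdh, which makes the sugar donor for glucuronidation (11.37 and 11.50 in WT, 12.02 and 11.92 in KO; 0.54, SE 0.10), and Trib3, a pseudokinase of stress signalling (0.78, SE 0.14). The median of that list was 0.26, and 0.08 when arrays were centred on the shared epithelial genes. Of 36 MAP kinase list genes 3 rose: Dusp8, Dusp16, another MAP kinase phosphatase (8.56 and 8.48 in WT, 9.43 and 9.52 in KO; 0.95, SE 0.13), and Btc, betacellulin, a ligand of the EGF receptor family (6.91 and 6.96 in WT, 7.99 and 7.86 in KO; 0.99, SE 0.10, adjusted p = 9.96e-04). Of these 7 genes, Nox1, Dusp8 and Btc were also called with the smooth muscle covariate. Of 38 actomyosin genes 4 rose: Rhoc, a small GTPase that drives contraction (9.69 and 9.73 in WT, 10.64 and 10.73 in KO; 0.97, SE 0.11), Fhdc1, the non-muscle tropomyosin Tpm4 (0.62, SE 0.11) and Anln. The actomyosin median was 0.14, and -0.04 when arrays were centred on the shared epithelial genes. Rhoc was called with the covariate as well.

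The stress and cell death lists were mixed. Of 38 genes of the integrated stress and unfolded protein responses, 3 rose and 1 fell: Chac1, which degrades glutathione, rose by 0.82 (SE 0.17) and Sesn2 and Trib3 rose, whereas Aldh18a1, which starts proline synthesis, fell by 0.50 (SE 0.09). The median of these 38 genes, 0.09, turned to -0.08 when arrays were centred on the shared epithelial genes. Of 27 genes of apoptosis and pyroptosis, Ripk3, the kinase that triggers necroptosis, rose (7.88 and 8.42 in WT, 9.06 and 9.23 in KO; 0.99, SE 0.19), while Gsdmc2, Gsdmc4 and Casp1, the protease that processes interleukin 18, fell. Casp1 read 9.83 and 9.70 in WT and 9.33 and 9.30 in KO (-0.45, SE 0.09, adjusted p = 0.041). Il18, in the list of 48 chemokines and cytokines, fell too, from 9.82 and 9.77 to 9.24 and 9.15 (-0.60, SE 0.11), and Cxcl16, a membrane-bound chemokine, rose in the same list (0.82, SE 0.16). Ripk3 kept 46% of its difference with the smooth muscle covariate, the least among the rises.

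The absorptive lists held a few falls, where 0.431% of all genes fell. Of 36 enterocyte genes 3 fell, 0 rose and 33 did not pass, with a median of -0.03. Lct, the lactase of the brush border, read 12.06 and 11.50 in WT and 10.74 and 10.67 in KO (-1.07, SE 0.19, adjusted p = 0.0292). Slc34a2, a phosphate transporter, read 11.13 and 10.87 in WT and 9.63 and 10.17 in KO (-1.10, SE 0.20), levels that overlapped the WT arrays of day 12 at 10.45 and 10.05. Cubn was the remaining member called. Of 33 genes of fatty acid oxidation only Decr1, a reductase needed for unsaturated fatty acids, fell (9.55 and 9.44 in WT, 8.90 and 8.97 in KO; -0.56, SE 0.10), while 29 stood lower, the median was -0.21 and the list means of 8.69 and 8.68 in KO lay below all 6 WT arrays, at 8.86 to 9.05. No member of that list passed without any 1 of the day 6 arrays, 6 fell when arrays were centred on the shared epithelial genes, with a median of -0.39, and 13 fell and 1 rose against the mean of all 6 WT arrays. Over all 19938 genes 373 fell with that centring, at a median of -0.17, and 544 fell and 551 rose against the 6 WT arrays, so calls were more numerous throughout. Of 22 iron genes 2 fell, Tfrc, the transferrin receptor (-0.64, SE 0.13), and Slc46a1, the proton-coupled folate transporter, first described for heme (-0.74, SE 0.14). In the xenobiotic list of 44, Ces1g, a carboxylesterase, rose (6.21 and 5.86 in WT, 7.0 and 6.85 in KO; 0.89, SE 0.17) and Aldh1a1, a retinaldehyde dehydrogenase, fell (-1.06, SE 0.22).

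Among crypt and secretory lists, 1 of 23 stem and crypt base genes rose and 1 fell. Cd44, an adhesion receptor of crypt cells, read 8.24 and 8.30 in WT and 9.25 and 9.02 in KO (0.87, SE 0.10, adjusted p = 0.00252), and Nrn1 read 6.23 and 6.49 in WT and 5.66 and 5.85 in KO (-0.61, SE 0.12). The list median was -0.14. The list means of 7.78 and 7.73 in KO lay below all 6 WT arrays, as in 10 of the 41 lists. Reg3a was the only called member of 15 Paneth and Reg genes, whose median was -0.22. No member passed among 18 goblet, 21 enteroendocrine or 21 tuft cell genes, with medians of 0.03, 0.03 and -0.16. In the enteroendocrine list the lowest difference was that of Cpe, a peptide-processing enzyme, at -1.61 (adjusted p = 0.168), and 2% of it was left with the smooth muscle covariate. Single calls were the rises of Cldn2, a pore-forming claudin, among 36 junction genes (0.83, SE 0.16), of S100a11, a calcium-binding protein, among 30 fetal-like and YAP target genes (0.81, SE 0.13), and of Prss8, a membrane protease, among 26 shared epithelial genes (0.78, SE 0.14). No member passed among 20 cholesterol, 24 hypoxia and glycolysis, 18 clock or 43 Notch and Wnt genes, with medians of 0.12, 0.12, -0.02 and 0.00.

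Immune and stromal markers gave few calls. None passed among 29 T cell, 24 macrophage and dendritic cell, 25 granulocyte and mast cell, 22 B and plasma cell, 20 endothelial, 12 mesothelial and fat, 12 pancreatic or 23 antigen presentation genes, with medians between -0.24 and 0.04. For B and plasma cell genes the WT means were 6.62 and 7.51 and the KO means 6.70 and 7.01, so the 2 WT arrays lay on both sides of KO, and the list median turned from -0.24 to 0.17 without WT replicate 2. Of 26 fibroblast and matrix genes 1 rose, the actin-severing protein Gsn (0.59, SE 0.11), with a median of 0.02. WT means of the 26 shared epithelial genes were 10.77 and 10.76 and KO means 10.94 and 10.95, above all 6 WT arrays, and a median of 0.16.

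Without WT replicate 2, the array that stood apart in sex-linked genes, no gene passed in the mitosis, junction, fibroblast and matrix, Cajal cell, iron, xenobiotic or fatty acid oxidation lists. In that fit the MAP kinase list held 4 rises, the oxidase and NRF2 list 3 and the stress response list 3, with 0 falls in each. The actomyosin list held 1 rise, the enterocyte list 1 fall, and the apoptosis and pyroptosis list 1 of each. The Paneth and Reg list held 1 fall, and the centrosome, fetal-like and YAP, shared epithelial, stem and crypt base, and chemokine lists held 1 rise each. Without WT replicate 1 the oxidase and NRF2 list held 1 rise, the MAP kinase and actomyosin lists 2 each, and the stress response and enterocyte lists 0 calls.

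**Figure D2:**
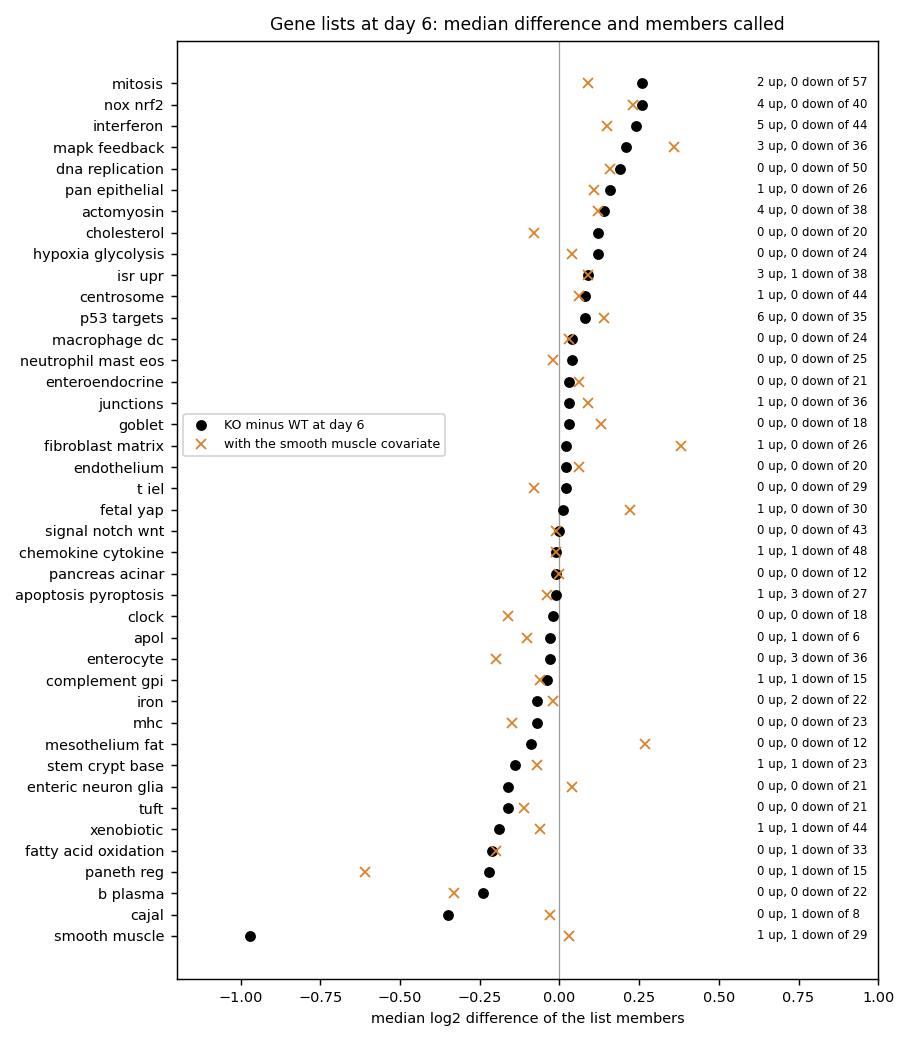
Median log2 difference of each of 41 gene lists at day 6 (horizontal axis), as KO minus WT (black circles) and with the smooth muscle mean as a covariate (orange crosses), with the members called higher or lower at the right. Smooth muscle stands apart at -0.97, and its cross lies near 0.

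Smooth muscle was the list with the lowest median at day 6. WT had means of 9.03 and 8.45 over the 29 measured genes and KO 7.91 and 7.78, a difference of -0.90. Both KO arrays lay below both WT arrays of that day and below all 6 WT arrays of the series, as in 10 of the 41 lists. The lowest WT array, replicate 1 of day 9, read 7.98. The 2 WT arrays of day 6 differed from each other by a median of 0.55, with replicate 1 higher for 28 of the 29 genes. By days 9 and 12 the list mean in KO was 8.93, 8.16, 9.45 and 9.00, against 7.98, 8.53, 8.64 and 8.72 in WT, so the low KO signal was seen at day 6 only, and within WT the mean varied from 7.98 to 9.03.

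Member by member, 26 of the 29 genes stood lower in KO, 24 had both KO arrays below both WT arrays of day 6 (20.9% of all genes did) and 19 below all 6 WT arrays (9.8% of all genes), and the median difference was -0.97. At an unadjusted p under 0.05 there were 22, against 11.8% of all genes, but over all genes tested only Hspb6 fell and only Ckb rose. The number that fell moved with the setting: 9 when arrays were centred on the shared epithelial genes, 7 against the mean of all 6 WT arrays, 6 with only the arrays of day 6 or without either KO array of day 9, and 0 with the replicate number as a block or with a trend in the prior. It was 2 without WT replicate 2 of day 6, 0 without any 1 of the other day 6 arrays, and 0 without either WT array of day 12. Over all genes 86 fell in the main fit, 373 with the epithelial centring, 544 against all 6 WT arrays and 97 with only the arrays of day 6. The median of the muscle list was -0.63 without WT replicate 1 and -1.34 without WT replicate 2. Hspb6, a small heat shock protein of muscle, read 9.71 and 9.18 in WT and 7.83 and 7.72 in KO (-1.67, SE 0.32, adjusted p = 0.0427); WT replicate 1 of day 9 read 7.91. Des, the intermediate filament of muscle, read 9.33 and 8.66 in WT and 6.95 and 6.65 in KO (-2.19, SE 0.47, adjusted p = 0.0561). Actg2, the enteric smooth muscle actin, read 9.88 and 9.25 in WT and 7.77 and 7.35 in KO (-2.01, SE 0.48). These 2 differences exceeded that of Hspb6 but had a larger SE and did not pass.

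Among the contractile proteins, Myh11, the smooth muscle myosin heavy chain, read 11.31 and 10.22 in WT and 9.04 and 8.92 in KO (-1.78, SE 0.39, adjusted p = 0.0631), and Acta2, the smooth muscle alpha actin, read 12.08 and 11.53 in WT and 10.82 and 10.66 in KO (-1.06, SE 0.28). The KO arrays of Acta2 lay just under WT replicate 1 of day 9, at 10.84. Calponin, Cnn1, differed by -1.82 (SE 0.51), the myosin light chain Myl9 by -1.65 (SE 0.43), Synm by -1.48 (SE 0.35), Synpo2 and Pcp4 by -1.44 each, Dmpk by -1.41, Tpm2 by -1.34 and Tagln by -1.33. Smaller differences were those of Pdlim3 (-1.0), Flna (-0.97), the myosin kinase Mylk (-0.90), Kcnmb1 (-0.88), Cald1 (-0.75), Csrp1 (-0.59), Lmod1 (-0.53) and Myocd, the transcriptional coactivator of the programme (-0.42). The remaining members lay nearer to 0, with Tpm1 at -0.32, Smtn at -0.30, Pdlim7 at -0.20, Actn1 and Mylk4 at -0.05, Itga8 at 0.11 and Vcl at 0.15. None of these members passed the test, and Ckb, which rose, was described above.

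A CArG box, the site of serum response factor, was found by name in 2 of the 25 smooth muscle genes with a window, 8%, and in 1.81% of all genes. These were Myl9, at a difference of -1.65, and Vcl, at 0.15, neither of which passed. Both are shown with the box in capitals. For Myl9 the 100 bases lie at chr2:156775258-156775357 on the + strand, and the box begins 161 bases before the start site; for Vcl the 78 bases lie at chr14:20929148-20929225 on the + strand, and the box begins 227 bases before it.
Myl9: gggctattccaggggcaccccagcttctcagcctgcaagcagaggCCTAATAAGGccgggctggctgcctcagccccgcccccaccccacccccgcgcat
Vcl: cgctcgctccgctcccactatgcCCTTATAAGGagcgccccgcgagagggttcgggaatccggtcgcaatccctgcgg

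Some genes of neighbouring cells of the muscle coat also stood lower in KO at day 6. Kit, the receptor that marks interstitial cells of Cajal, read 8.0 and 7.92 in WT and 7.44 and 7.47 in KO (-0.51, SE 0.10, adjusted p = 0.0469), the only called gene of 8 in that list, whose median was -0.35. Chrm2, a muscarinic receptor of smooth muscle, read 8.04 and 7.29 in WT and 6.14 and 6.18 in KO (-1.51, SE 0.29, adjusted p = 0.042), and Ogn, a small proteoglycan of connective tissue, read 9.17 and 8.22 in WT and 7.20 and 7.22 in KO (-1.49, SE 0.29). Grem1, a BMP antagonist made by stromal and muscle cells, stood at -1.74 (SE 0.47, adjusted p = 0.137), and none of 21 enteric neuron and glia genes passed, with a median of -0.16, WT means of 6.01 and 5.74 and KO means of 5.74 and 5.74. WT replicate 2 and both KO arrays had the same neuronal mean while their smooth muscle means differed. Only 8 of the 21 neuronal genes had a mean signal of at least 6, and the odorant receptor genes reached 5.33 at their 95th percentile. So dim a list can show little of a loss, and whether less muscle coat was sampled was not tested.

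**Figure D3:**
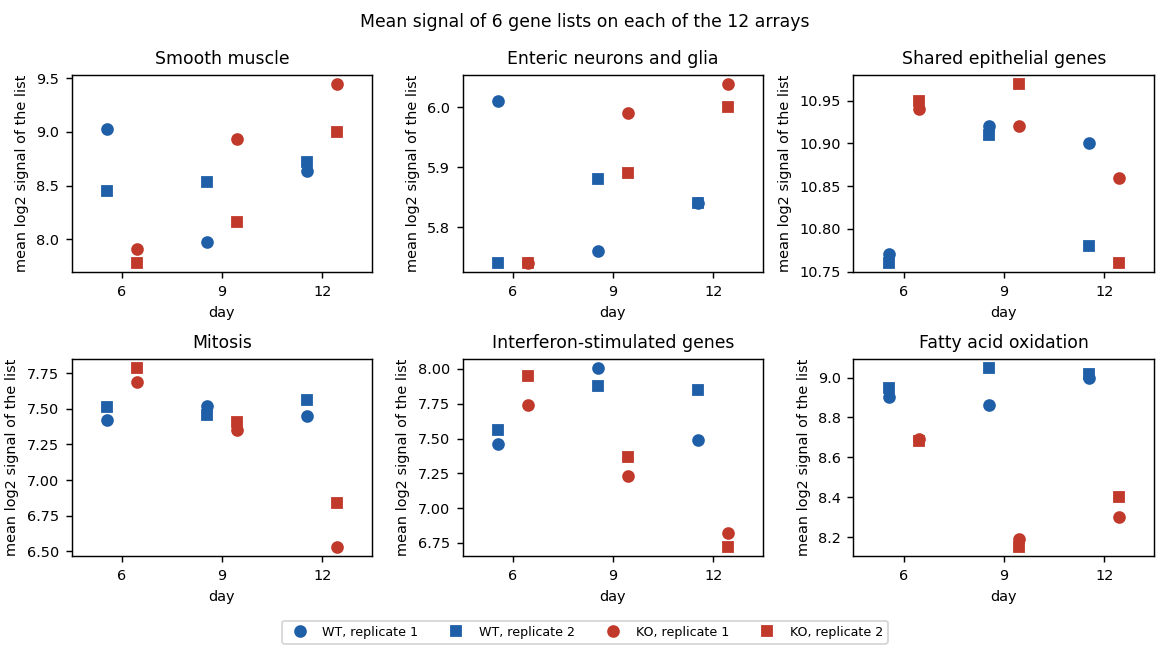
Mean log2 signal (vertical axes) of 6 gene lists on each of the 12 arrays by day, with WT in blue and KO in red and the replicates as circles and squares; the vertical scales differ. At day 6 the KO arrays had smooth muscle means of 7.91 and 7.78 and the WT arrays 9.03 and 8.45, while the interferon mean of KO, 7.74 and 7.95, lay within the WT range of the series.

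How the other differences stood beside the low muscle signal was described by adding the list mean of each array to the fit as a covariate. The slope of this covariate came from the differences between replicates within the 6 groups. With it the median of the 29 muscle genes went from -0.97 to 0.03, a median of 5.63% of each difference being left. This is in part by construction, since the mean is made of these genes. For the 205 called genes a median of 94.4% was left, against 87.8% over all genes. Over all 19938 genes, 14600 kept their direction and 12321 kept at least 50% of their difference. All 205 kept their direction, and 198 kept at least 50% of their difference, 118 of the 119 higher and 80 of the 86 lower genes. The 7 that kept less were Ogn (43%), Aamdc (44%), Chrm2 (45%), Hspb6 (46%), Ripk3 (46%), Rbpms2 (48%) and Aldh1a1 (49%). Cd59a, the second largest fall, kept 59% (-1.70, adjusted p = 0.129).

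The sizes thus stayed while the calls mostly did not: 24 genes passed with the covariate, 0.12% of those tested, 12 in each direction, and 21 of them were among the 205. The median SE of a difference rose from 0.11 to 0.16, with the covariate itself differing between genotypes at day 6. With a covariate made of 9 contractile genes alone, added after the values were seen, 20 genes passed. The slope on the muscle mean passed for 36 genes, 0.181% of those tested, of which 33 had a positive slope and 15 were in the list. Among the 205 called genes it passed for 0, which is near that share. Genes that follow the muscle mean between replicates have a wider spread in the main fit and pass less easily. The median SE was 0.28 for the 29 muscle genes. Neither this 0 nor the share left among called genes can therefore show how far muscle bore on the day 6 differences. Of the 24 genes, 12 rose: Mboat1, Dusp8, Ankrd22, Nox1, Gml, Ckb, Ces1g, Rhoc, Btc, Tnfrsf12a, Ccng1 and Sdcbp2, a syntenin relative that was not called without the covariate. Tnfrsf12a, the receptor of the cytokine TWEAK, read 7.26 and 7.28 in WT and 8.18 and 8.13 in KO (0.88, SE 0.10, adjusted p = 0.00278, and 1.01 with the covariate, adjusted p = 0.0343). The 12 that fell were Apol10a, Reg3a, Gsdmc2, Slc1a1, Dio1, Slc5a11, Tnfsf10, Auh, Pm20d1, Capn13 and, called only with the covariate, Mid1 and Ociad2. Slc5a11, an inositol transporter, read 9.45 and 9.35 in WT and 8.24 and 8.21 in KO (-1.17, SE 0.10, adjusted p = 3.15e-04), and Tnfsf10, the death ligand TRAIL, read 8.63 and 8.57 in WT and 7.49 and 7.61 in KO (-1.05, SE 0.14, adjusted p = 0.00687).

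**Figure D4:**
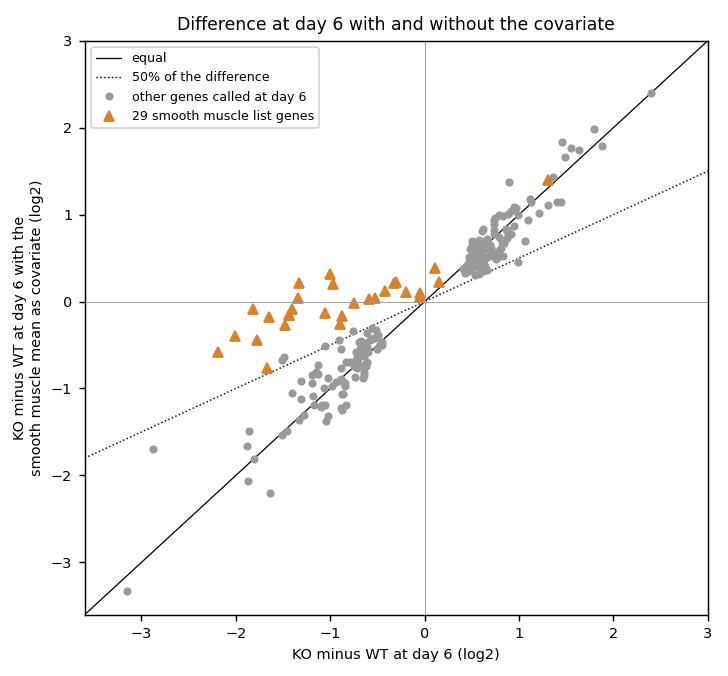
Log2 difference of KO and WT at day 6 (horizontal axis) against the same difference with the smooth muscle mean as a covariate (vertical axis), 1 point per gene, for the genes called at day 6 (grey) and the 29 smooth muscle genes (orange triangles). Called genes follow the line of equality, with a median of 94.4% of the difference left, against 87.8% over all genes. Most smooth muscle genes lie near 0 on the vertical axis.

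The called genes also differed between the WT arrays of day 6, which differed in sex-linked genes as well as in muscle signal. Of the 86 lower genes, 61 read higher in WT replicate 1, the array with more muscle signal, than in WT replicate 2, and of the 119 higher genes 89 read lower in it, with median differences between these WT arrays of 0.09 and -0.10, small beside the medians of -0.85 and 0.66 between genotypes. Over all genes 10191 read higher and 9736 lower in WT replicate 1. The slope on the muscle mean was positive for 48 of the 86 lower and 45 of the 119 higher genes. Several list medians moved with the covariate: mitosis from 0.26 to 0.09, interferon from 0.24 to 0.15, enterocyte from -0.03 to -0.20, Paneth and Reg from -0.22 to -0.61, and fibroblast and matrix from 0.02 to 0.38. Those of the oxidase and NRF2 list (0.26 and 0.23), DNA replication (0.19 and 0.16) and fatty acid oxidation (-0.21 and -0.20) moved by 0.03 or less.

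Set beside the later days, most day 6 calls were met again. Of the 205 genes, 165 were called in the same direction at day 9, when 29.7% of all genes were called: 92 of the 119 higher genes, against 12.6% of all genes called higher that day, and 73 of the 86 lower genes, against 17.1% called lower. At day 12, when 27.3% of all genes were called, the number was 160: 88 higher and 72 lower genes, against 13.7% of all genes in each direction. On both days 150 were called. Called the opposite way were 3 at day 9 and 10 at day 12. Each day had its own WT and KO mice, but the tests of all days used the same estimate of spread for a gene. A gene with a small spread is called more easily on every day, and the shares over all genes do not allow for this. The KO minus WT difference at day 9 differed from that at day 6, by its own test, for 114 of the 205 genes (12.7% of all genes), of which 91 had the wider difference at day 9 and 23 a narrower or opposite one; for day 12 it differed for 122 (13.2% of all genes), though the sex-linked genes of the day 12 mice resembled those of WT replicate 2 alone at day 6. Mboat1 widened from 2.40 to 3.63 at day 9 and 3.68 at day 12, and Apol10a from -3.15 to -5.94 and -5.17. Nox1 went from 1.64 to 0.60 and -2.22, and Oasl2 from 1.21 to -1.0 and -2.18. Ccng1 stood at 0.73, -0.02 and 0.11, and Hspb6 at -1.67, -0.32 and 0.48.

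**Figure D5:**
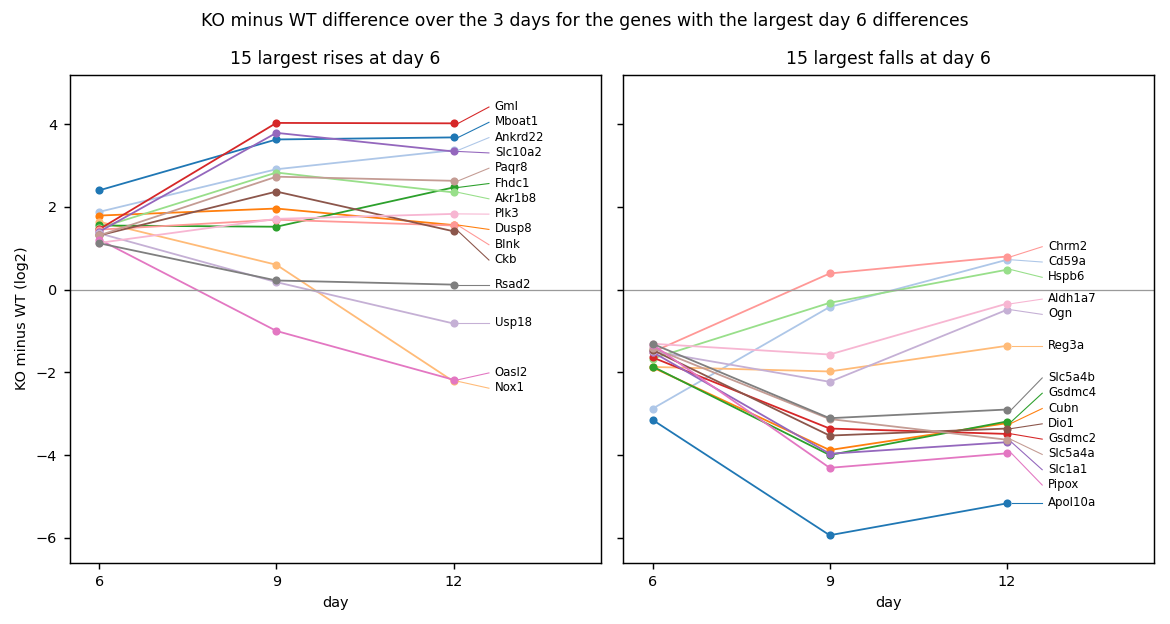
Log2 difference of KO and WT (vertical axis) at days 6, 9 and 12 (horizontal axis) for the 15 largest rises (left) and the 15 largest falls (right) of day 6, 1 line per gene. Most lines move away from 0 after day 6, as for Gml (1.46, 4.03 and 4.02), while those of Nox1, Usp18, Oasl2, Cd59a, Chrm2 and Hspb6 cross to the other side by day 12.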

How the data were processed

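The authors deposited log2 signals of 35556 probe sets on 12 arrays, used as deposited; per the submitters' processing notes, limma and R 3.5 were used, with background correction and normalisation not given in the sources used here. Of these, 21789 probe sets carried 1 symbol in the platform's annotation, 1621 several and 12146 none. For 999 genes with more than 1, the probe set with the highest mean was kept, which left 19938 genes. The fit was made with limma (3.58.1, under R 4.3.3) over all 12 arrays with 1 mean for each of the 6 groups (6 residual and 5.23 prior degrees of freedom), two-sided, with Benjamini-Hochberg adjustment over all genes; the fit was tested on simulated data. With 2 against 2 mice, the smallest p of an exact permutation test is 0.333. Nothing says that mice were handled independently, so p-values measure the spread between these arrays; their number limits the precision.

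The 41 gene lists (1159 of 1272 entries measured) and the members were chosen with earlier results of these data known. Named genes were Cep43, the 15 largest rises and 15 largest falls with non-overlapping arrays (predicted genes, small RNAs, odorant receptors and immunoglobulin segments skipped, 1 in each direction), up to 4 called members of a list or the 2 with the smallest p, all smooth muscle genes, and up to 20 genes called with the smooth muscle covariate. Aamdc, Rbpms2, Auh, Pm20d1, Capn13, Eda2r and Oasl1, and the sex-linked genes, fall outside it and were named after their values were seen. Alternatives were other scalings, filters, covariates, a replicate block and leaving out each array. Promoter windows came from RefSeq (GRCm38.p6).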

Additional observations from a re-analysis of the deposited data

Results flagged for a closer look

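Of the 30 genes with the largest differences at day 6, 23 had a KO minus WT difference at day 9 or 12 that differed from that of day 6 (limma, adjusted p under 0.05 over all genes), 11 of the rises and 12 of the falls. The values below are the later difference less that of day 6, on the log2 scale, at day 9 for 21 genes and at day 12 for Usp18 and Hspb6.

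Among the rises, the difference was wider at day 9 for Gml (2.57), Slc10a2 (2.39), Paqr8 (1.42), Akr1b8 (1.34), Mboat1 (1.23), Ckb (1.05) and Ankrd22 (1.03). It was narrower or turned for Nox1 (-1.04), Rsad2 (-0.91) and Oasl2 (-2.21), and at day 12 for Usp18 (-2.17).

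Among the falls, it was wider at day 9 for Pipox (-2.98), Apol10a (-2.80), Slc1a1 (-2.46), Gsdmc4 (-2.15), Dio1 (-2.07), Cubn (-2.00), Slc5a4b (-1.80), Slc5a4a (-1.72) and Gsdmc2 (-1.72). It was narrower or turned for Cd59a (2.46) and Chrm2 (1.90), and at day 12 for Hspb6 (2.15). The smooth muscle mean in KO was low at day 6 and not at days 9 and 12; its part in these values was not tested.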

How the results depend on the processing

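No named difference that had passed changed sign under any alternative run. For leaving out an array this was fixed in advance, since the day 6 arrays of these genes did not overlap. The replicate block, the trend in the prior, the filter on dim genes and the fit of day 6 alone leave the difference itself unchanged. Of the smooth muscle genes that had not passed, Tagln (0.21), Pdlim3 (0.32), Flna (0.20), Smtn (0.22), Tpm1 (0.21), Myocd (0.12), Tpm2 (0.04), Lmod1 (0.04) and Csrp1 (0.03) turned positive with the smooth muscle covariate, as did Pdlim7, Actn1 and Mylk4; with the contractile covariate 15 of the 29 turned. Other named differences that had not passed turned under a covariate or the epithelial centring too. The count of 205 genes (119 higher, 86 lower) was 418 (45 and 373) with arrays centred on the shared epithelial mean, 24 (12 and 12) with the smooth muscle covariate, 56 (25 and 31) with an enteric neuron and glia covariate, and, in alternatives added after the data were seen, 20 (10 and 10) with the contractile covariate and 1095 (551 and 544) against all 6 WT arrays. Leaving out 1 array gave 21 to 291 calls, 12 to 169 higher and 9 to 122 lower, and 11 of the 30 largest changes were called in all 12 of these fits. The count of the 30 that differed at day 9, 21, was 18 to 23 with an array left out, 11 with the smooth muscle covariate and 12 with the contractile one. For each group of days 9 and 12, leaving out either array gave the same day 6 counts, so the 12 fits are not 12 separate checks. The other alternatives, among them a filter on dim genes (264) and only the 4 arrays of day 6 (181), stayed within 1.5 times the count of 205.

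With the replicate number as a block, 101 genes passed, 53 higher and 48 lower. Replicate differences of WT and KO correlated at 0.18, -0.09 and 0.11 at days 6, 9 and 12, so the numbers were not taken to pair the mice. With 2 mice per group and no exact test below 0.333, single calls near the threshold rest on the spread shared by all groups; signal near that of the odorant receptor genes limits what dim genes show.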

Other observations

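A few called genes outside the lists were picked after their values were seen. The retinol saturase Retsat read 8.76 and 8.48 in WT and 7.61 and 7.59 in KO (-1.02, SE 0.13, limma adjusted p = 0.00646), the retinol dehydrogenase Rdh7 differed by -1.15 (SE 0.19) and the retinal reductase Dhrs3 by -0.70 (SE 0.12). Pycard, the adaptor of the inflammasome in which Casp1 works, read 10.24 and 10.04 in WT and 9.52 and 9.60 in KO (-0.58, SE 0.12, adjusted p = 0.0469). Tnfrsf21, a death-domain receptor, read 8.02 and 8.34 in WT and 9.03 and 9.06 in KO (0.87, SE 0.12, adjusted p = 0.00968).

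Other calls rested on unusual arrays. Hspa1a, the inducible heat shock protein, read 8.53 and 7.67 in WT of day 6 but 6.73 to 6.97 in the 4 WT arrays of days 9 and 12 and 7.06 and 6.77 in KO, so its fall (-1.19, SE 0.21, adjusted p = 0.0317) was against a WT pair that was high. Igkv4-91, an immunoglobulin segment, read 5.48 and 5.62 in WT and 8.94 and 10.46 in KO of day 6 (4.15, SE 0.61, adjusted p = 0.0109), while WT of day 12 read 7.44 and 9.87.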
